A study of Mus musculus with 12 samples.

Results

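The genes described here are 10 imprinted regulators of growth, H19, Igf2, Igf2r, Dlk1, Meg3, Mest, Peg3, Plagl1, Grb10 and Cdkn1c, out of the 32285 genes in a table of RNA sequencing from bone marrow (BM) progenitors. They were chosen by name and each matched 1 row. The libraries come from WT C57BL6/J mice at 1 month (1MO) and 3 months (3MO) of age, from 2 sorted populations, Ly6d- CLPs (common lymphoid progenitors that lack the B-lineage marker Ly6d) and Flk2+ MPPs (multipotent progenitors upstream of the CLPs). Each population at each age has 3 libraries, 12 in all, described by the study as independent experimental repeats; no treatment or engineered allele is involved, and nothing in the labels gives sex or the number of mice behind a library. The comparisons here ask whether these genes shift as growth slows between juvenile and adult life, and whether CLPs and MPPs differ at either age. Of the 10 genes, 8 had a count in any library and 6 (Igf2r, Grb10, Cdkn1c, Dlk1, Meg3 and Peg3) passed the filter on low counts and were tested among 13367 genes.

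An imprinted gene is transcribed mainly from the copy inherited from one parent, because methylation set in the egg or sperm marks the parental copies of a control region differently. Many such genes set body size before and shortly after birth: paternally expressed Igf2, Dlk1, Mest, Peg3 and Plagl1 are associated with growth, and maternally expressed H19, Igf2r, Cdkn1c, Meg3 and, in most tissues, Grb10 with its restraint. Several of them are transcribed strongly in the fetus and decline in many organs after birth, and in the hematopoietic system H19, Meg3 and Cdkn1c are best known from long-term stem cells. The table gives 1 value per gene and does not separate the parental copies, so imprinting itself was not measured.

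Library totals ran from 8889083 to 20677785 estimated counts, with a median of 13208993, and 12379 to 15512 genes had a count in a library. The markers mostly went with the population labels. Of 18 tested lymphoid progenitor markers, 10 were called higher and 1 lower in CLPs than in MPPs at each age, and 7 were not called (edgeR's quasi-likelihood test, adjusted p under 0.05). Of all tested genes, 5.38% were called at 1MO and 6.07% at 3MO in either direction. Il7r, the receptor that defines CLPs, had a mean of 371 ± 37.6 CPM (counts per 1000000 counts; SD, n = 3) in 1MO CLPs and 340 ± 35.4 in 3MO CLPs, against 10.4 ± 7.14 and 10.4 ± 2.53 in the MPPs of the same ages. Hlf, a transcription factor of stem and multipotent cells, had 38.1 ± 8.11 and 44.8 ± 2.88 in the CLPs against 572 ± 74.5 and 579 ± 50.9 in the MPPs. Il2rg, on the lymphoid list, went the other way, at 48.9 ± 8.31 and 42.7 ± 3.38 CPM in the CLPs against 81.4 ± 10.8 and 74.0 ± 12.1 in the MPPs. Of 21 stroma and bone markers, the collagen genes Col1a1 and Col1a2 moved with age in CLPs, with Col1a1 at 223 ± 153 CPM in 1MO CLPs and 0.639 ± 1.11 in 3MO CLPs.

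Igf2r was the abundant member, at 67.2 to 198 CPM, and every 3MO library lay above every 1MO library of its population, as did 4.51% of tested genes in CLPs and 3.96% in MPPs. Neither age difference passed edgeR's quasi-likelihood test across all genes, while the CLP difference passed DESeq2's Wald test. Meg3 was the only member whose difference between populations passed: at 3MO it was lower in CLPs than in MPPs, with a log2 difference of -5.30 ± 1.28 (SE; edgeR's quasi-likelihood test, adjusted p = 0.0212, n = 3 per group). Of all tested genes 3.34% were called lower in that comparison. Grb10 ranged from 0 to 18.5 CPM over the libraries and Cdkn1c from 0.202 to 7.65. The fetal growth genes Igf2, Dlk1, Peg3 and Plagl1 had at most 1.80 CPM in any library, except for 5.61 CPM of Plagl1 in 1 library of 3MO MPPs, and H19 and Mest had no count in any of the 12 libraries.

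Per kilobase of exon, with CPM averaged over the 12 libraries, Igf2r stood at 13.7, Cdkn1c at 1.39, Grb10 at 0.847, Meg3 at 0.211, Dlk1 at 0.102, Plagl1 at 0.0706, Peg3 at 0.0326 and Igf2 at 0.0109. These means pool groups that differ. Within each group Igf2r was still the highest per kilobase, at 10.2 to 19.2, but the order below it varied: Grb10 (0.960) exceeded Cdkn1c (0.400) in 3MO CLPs, and Meg3 (0.760) exceeded Grb10 (0.692) in 3MO MPPs. The place of Plagl1 rests on 1 library.

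Meg3 and Dlk1 share one imprinted domain on chromosome 12, and Igf2r is crossed by an antisense transcript, so the sequence just before the start of each of these 3 genes is shown. Promoters of 8 of the 10 members were found in RefSeq (GRCm38.p6); none was found for H19 or Cdkn1c. Each line gives the 250 bases before the start, 5′ to 3′ on the gene's own strand, with CpG pairs, the sites at which imprints are methylated, in capitals. The Meg3 stretch, at the first of its 2 listed starts, is chr12:109540746-109540995 (plus strand), that of Dlk1 is chr12:109452573-109452822 (plus strand), and that of Igf2r is chr17:12769707-12769956 (minus strand).
Meg3: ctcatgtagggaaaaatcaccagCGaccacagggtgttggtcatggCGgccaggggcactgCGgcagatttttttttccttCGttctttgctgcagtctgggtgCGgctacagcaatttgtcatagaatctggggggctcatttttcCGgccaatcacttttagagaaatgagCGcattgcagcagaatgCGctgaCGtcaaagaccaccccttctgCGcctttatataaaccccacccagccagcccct
Dlk1: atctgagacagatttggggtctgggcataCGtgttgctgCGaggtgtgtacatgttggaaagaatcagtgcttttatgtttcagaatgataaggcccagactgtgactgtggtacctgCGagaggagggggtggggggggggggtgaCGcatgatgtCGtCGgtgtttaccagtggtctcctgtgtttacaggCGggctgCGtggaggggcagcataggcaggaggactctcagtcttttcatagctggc
Igf2r: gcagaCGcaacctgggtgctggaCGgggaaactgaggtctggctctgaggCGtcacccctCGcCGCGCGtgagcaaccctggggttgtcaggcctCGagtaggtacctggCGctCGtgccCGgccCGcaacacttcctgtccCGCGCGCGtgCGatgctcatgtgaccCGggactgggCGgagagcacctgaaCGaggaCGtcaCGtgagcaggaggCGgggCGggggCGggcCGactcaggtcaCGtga

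The Igf2r stretch holds 27 CpG pairs, that of Meg3 10 and that of Dlk1 8, where the median over 32851 promoters is 6. In the full window, which adds the first 50 bases of the transcript, the counts were 34, 13 and 9, and 92.3%, 62.1% and 54.2% of promoters held fewer. RefSeq lists a second Meg3 start, whose window, chr12:109545148-109545447, holds 1 CpG pair and none of the motifs that follow. Across 300 bases at the first start the Meg3 promoter holds 1 TGACGTCA (the cAMP response element, which reads the same on both strands and is carried by 1.79% of promoters). It also holds 1 TGCCGC (the core bound by the imprint guardian ZFP57 when methylated, 11.6% of promoters, both strands searched) and 2 overlapping matches of TATAAA on opposite strands (13.6% of promoters). The Dlk1 and Igf2r windows hold none of these 3 motifs.

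Igf2 (chr7:142650766-142666816, GRCm38, minus strand) encodes the fetal growth hormone insulin-like growth factor 2. It had 0 counts in all 6 CLP libraries, where a count of 0 allows up to 0.0342 CPM (3 counts over the 6 libraries, which covers counting error only). The 1MO MPP libraries held 2, 1 and 2 counts and the 3MO MPP libraries 0, 0 and 5. Both MPP groups thus summed to 5 counts, too few for the filter, and no fold against the CLPs was formed.

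Igf2r (ENSMUSG00000023830, chr17:12682406-12769664, GRCm38, minus strand) encodes the cation-independent mannose 6-phosphate receptor, which carries lysosomal enzymes and takes up and degrades IGF2. In CLPs it measured 122, 99.6 and 67.2 CPM at 1MO and 167, 198 and 173 CPM at 3MO. In MPPs it measured 86.0, 105 and 92.5 CPM at 1MO and 144, 157 and 117 CPM at 3MO. In both populations the lowest 3MO library lay above the highest 1MO library.

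The order of the Igf2r group means ran from 1MO MPPs (94.6 ± 9.86 CPM, SD, n = 3) and 1MO CLPs (96.3 ± 27.6) to 3MO MPPs (139 ± 20.3) and 3MO CLPs (179 ± 16.5). The 1MO groups overlapped, 1MO CLPs and 3MO MPPs overlapped at 1 library each way, and the 3MO groups did not overlap. With age the fitted change was 0.90 ± 0.20 (log2, SE; 95% interval 0.46 to 1.33), or 1.86-fold, in CLPs and 0.56 ± 0.20 (0.12 to 0.99), or 1.47-fold, in MPPs. The unadjusted p-values were 0.000501 and 0.0152 and the adjusted ones 0.216 and 1 (edgeR's quasi-likelihood test, Benjamini-Hochberg over 13367 genes), so neither passed. The CLP difference passed with DESeq2's Wald test (adjusted p = 0.0152) and with genes of very low count kept (adjusted p = 0.032), and leaving out each library in turn gave 0.69 to 1.10 with adjusted p from 0.13 to 0.894.

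The ages differed in Igf2r by 0.34 ± 0.29 more in CLPs than in MPPs (95% interval -0.27 to 0.95, unadjusted p = 0.254). CLPs and MPPs differed in it by 0.025 ± 0.20 at 1MO (-0.41 to 0.46) and by 0.37 ± 0.20 at 3MO (-0.066 to 0.80, adjusted p = 0.366). In bulk libraries like these, fewer cells that express a gene and less RNA per cell cannot be told apart. The summed stroma and bone markers also moved with age, from 831 to 1358 CPM in 1MO CLPs to 580 to 764 in 3MO CLPs, and were 408 to 579 in 1MO MPPs and 385 to 554 in 3MO MPPs, where Runx2 made up most of the sum. Between 1 and 13 of the 21 markers were at 0 in a CLP library and 5 to 15 in an MPP library. Col1a1 and Col1a2 had 27.3 ± 23.9 and 15.6 ± 10.2 CPM in 1MO MPPs and 1.94 ± 3.06 and 5.26 ± 0.784 in 3MO MPPs.

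Markers of other cell types were compared between ages as well. Of 14 erythroid, 9 endothelial and 5 megakaryocyte markers tested, 0 passed with age by edgeR in either population. Of all tested genes, 0.0748% passed in CLPs and 0.0224% in MPPs. Of 12 myeloid markers, 11 were higher at 3MO in MPPs and 9 in CLPs, 4 and 1 of them at an unadjusted p under 0.05 (2.06% and 2.96% of all tested genes were), and 0 passed the adjusted test. The granule gene S100a8, alone of the 12, went without overlap from 4.97 ± 1.40 to 19.2 ± 11.4 CPM in MPPs. Of all tested genes, 3.96% were higher without overlap there. The summed myeloid markers were 837 to 1020 CPM in 1MO MPPs and 780 to 1234 in 3MO MPPs, with none at 0. In CLPs the sum overlapped too, at 1169 to 1530 CPM at 1MO and 1056 to 1414 at 3MO. Of 18 tested lymphoid progenitor markers, 15 had lower and 3 higher estimates with age in CLPs, and 1 passed: Rag1, a recombinase gene, fell (-1.44 ± 0.25, edgeR adjusted p = 0.0428). Their sum overlapped between ages, at 10391 to 11426 CPM in 1MO CLPs and 9988 to 10799 in 3MO CLPs. In MPPs 11 had higher and 7 lower estimates, and 0 passed by edgeR. Ebf1, a B-lineage factor that did not pass in either population, was at 63.7 ± 11.8 CPM in 1MO CLPs and 28.4 ± 8.92 in 3MO CLPs (edgeR adjusted p = 0.67), and at 0.487 ± 0.356 and 1.91 ± 0.967 CPM in 1MO and 3MO MPPs (adjusted p = 0.658). The part of stromal, myeloid or lymphoid cells in the Igf2r difference was not tested.

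**Figure D1:**
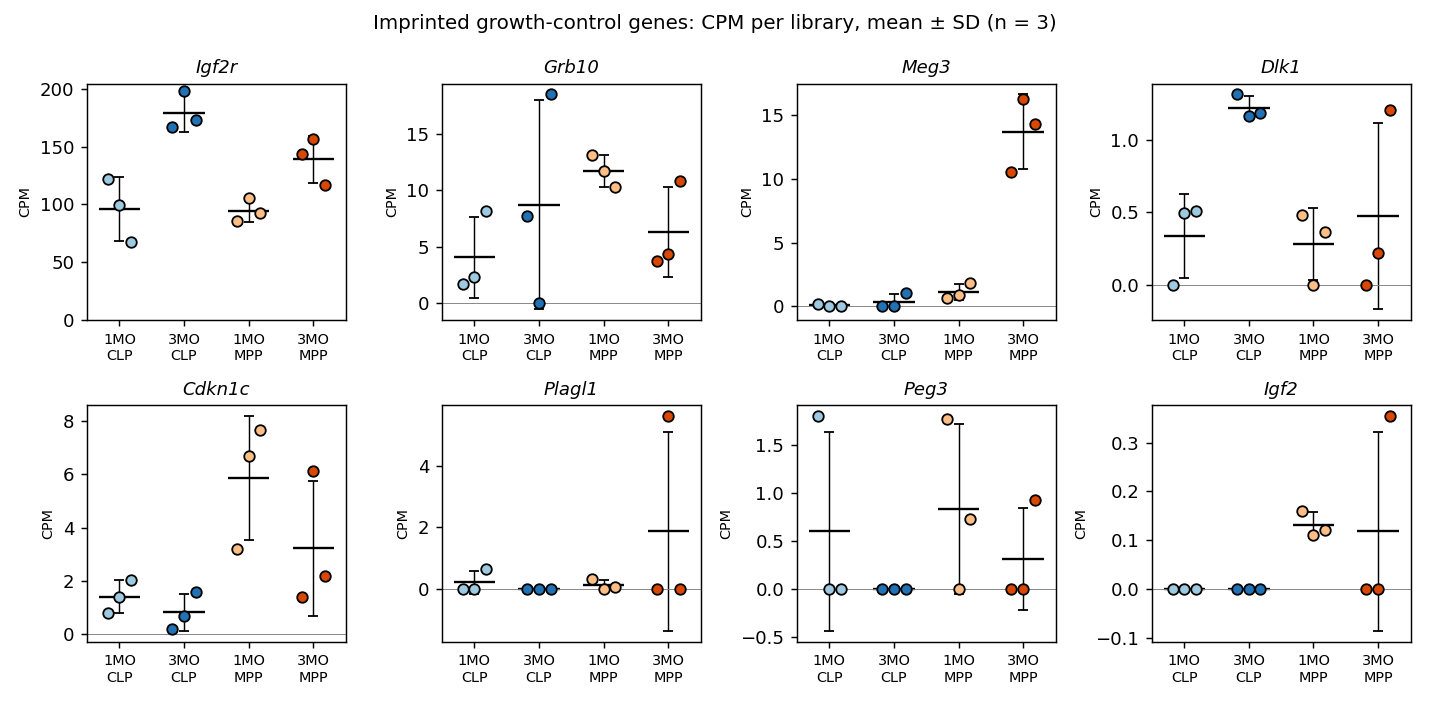
Level of the 8 members with a count, in CPM on a linear axis, for each library (points) of 1MO and 3MO CLPs (blue) and 1MO and 3MO MPPs (orange), with the mean and SD of 3 libraries (line and bar; each panel has its own axis, and a bar that crosses 0 reflects spread, not a negative level). Igf2r lay higher at 3MO in both populations, and Meg3 stood at 10.6 to 16.3 CPM in 3MO MPPs and at 1.81 CPM or less in the other 9 libraries.

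Airn, the noncoding RNA transcribed across the Igf2r promoter from the opposite strand and known for silencing the paternal Igf2r copy, held 15 to 106 counts per library, against 960 to 3578 for Igf2r. The kit marks strand but the strand setting of the counting is not given in the sources used here, so reads of the pair may have been divided imperfectly. Airn had 2.67 ± 2.83 CPM in 1MO CLPs, 3.29 ± 2.50 in 3MO CLPs, 2.61 ± 0.770 in 1MO MPPs and 4.74 ± 2.79 in 3MO MPPs (SD, n = 3), and its groups overlapped in every comparison.

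Slc22a3, an organic cation transporter gene in the same imprinted domain, showed a population difference that Igf2r did not. It was lower in CLPs than in MPPs at 1MO (-1.32 ± 0.17, edgeR adjusted p = 0.000196) and at 3MO (-1.27 ± 0.17, adjusted p = 0.000299). Its level was 31.7, 40.4 and 36.5 CPM in 1MO CLPs, 50.7, 49.0 and 42.3 in 3MO CLPs, 89.9, 89.2 and 91.7 in 1MO MPPs and 129, 110 and 105 in 3MO MPPs. Like Igf2r it was higher at 3MO in every library of each population, by 0.39 ± 0.17 in CLPs and 0.34 ± 0.17 in MPPs, and like Igf2r it did not pass edgeR's test of age (adjusted p = 0.836 and 1). By DESeq2, Igf2r passed with age in CLPs and Slc22a3 in neither population.

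Grb10 (ENSMUSG00000020176, chr11:11930508-12038683, minus strand) encodes an adaptor that binds the activated insulin and IGF1 receptors and dampens their signal. In CLPs it measured 1.71, 2.27 and 8.19 CPM at 1MO and 7.67, 0 and 18.5 CPM at 3MO. The MPP libraries measured 13.1, 11.7 and 10.3 CPM at 1MO and 3.70, 4.32 and 10.8 CPM at 3MO. The 3MO CLPs thus spanned the whole range seen, from a library with no count to the highest level of any library.

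At 1MO, all Grb10 values in CLPs lay below those in MPPs, with means of 4.06 ± 3.59 and 11.7 ± 1.40 CPM (SD, n = 3) and a difference of -1.52 ± 1.05 (95% interval -3.77 to 0.72; edgeR adjusted p = 0.603). At 3MO the populations overlapped, at 8.72 ± 9.30 and 6.29 ± 3.96 CPM. The age difference was 1.09 ± 1.05 in CLPs and -0.89 ± 1.04 in MPPs, with overlapping groups in both. The interaction of age and population was 1.99 ± 1.47 (unadjusted p = 0.198). Without the 3MO CLP library 3 the age difference in CLPs was -0.12, so its direction rested on that library.

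Cdkn1c (ENSMUSG00000037664, chr7:143458339-143461050, minus strand) encodes p57, an inhibitor of cyclin-dependent kinases that holds stem cells in quiescence. It measured 0.810, 1.38 and 2.03 CPM in 1MO CLPs and 0.202, 0.664 and 1.58 CPM in 3MO CLPs. It measured 3.21, 6.69 and 7.65 CPM in 1MO MPPs and 1.37, 6.12 and 2.20 CPM in 3MO MPPs. Every library had a count, and the 1MO populations did not overlap, while at 3MO the highest CLP library passed the lowest MPP library.

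CLPs were at -2.04 ± 0.89 against MPPs at 1MO (95% interval -3.94 to -0.15) and at -1.97 ± 0.90 at 3MO (-3.88 to -0.052). These gave unadjusted p of 0.036 and 0.0447 and edgeR adjusted p of 0.258 and 0.247, so neither passed. The age difference was -0.78 ± 0.88 in CLPs and -0.85 ± 0.86 in MPPs, with overlapping groups and intervals of -2.66 to 1.10 and -2.68 to 0.97. Kcnq1ot1, the antisense RNA that silences the paternal copies across the Cdkn1c domain, was abundant in all libraries, at 136 to 576 CPM, and its groups overlapped in each comparison. Phlda2, a placental growth restrainer of that domain, had at most 0.303 CPM in any library.

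Dlk1 (ENSMUSG00000040856, chr12:109452823-109463336, plus strand) encodes a membrane ligand of the Delta family that holds precursor cells undifferentiated. The CLP libraries held 0, 10 and 8 counts at 1MO and 13, 21 and 15 at 3MO. The MPP libraries held 6, 0 and 6 counts at 1MO and 0, 3 and 17 at 3MO. In CPM the 3MO CLPs lay close together, at 1.31, 1.16 and 1.19, above the 0 to 0.508 of the 1MO CLPs. The change of 1.81 ± 1.61 had a 95% interval of -1.61 to 5.23 and did not pass (unadjusted p = 0.278, edgeR adjusted p = 0.933). In MPPs the change was 0.72 ± 1.61 with overlapping groups, and it was -1.26 without the 3MO MPP library 3.

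Meg3 (ENSMUSG00000021268, chr12:109541001-109571726, plus strand) lies downstream of Dlk1 and is the maternally expressed long noncoding RNA of the domain. The CLP libraries held 2, 0 and 0 counts at 1MO and 0, 0 and 13 at 3MO. The MPP libraries held 8, 8 and 30 counts at 1MO and 100, 227 and 202 at 3MO. In CPM the 1MO MPPs measured 0.643, 0.878 and 1.81 and the 3MO MPPs 10.6, 16.3 and 14.3, while 4 of the 6 CLP libraries had no count.

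At 3MO, Meg3 was lower in CLPs (0.343 ± 0.594 CPM, SD, n = 3) than in MPPs (13.7 ± 2.92), with a 95% interval of -8.03 to -2.57 around the log2 difference of -5.30 and adjusted p = 0.0212 by edgeR's quasi-likelihood test. The summed counts of 529 and 13 gave a ratio of 44.1 (95% counting interval 25.6 to 83.4). The call was lost without the 3MO CLP library 1 (adjusted p = 0.0614), the 3MO MPP library 2 (0.0776) or the 3MO MPP library 3 (0.0625), and held in the other 8 of 11 fits with a library left out, with differences of -5.46 to -4.67 over all 11. All CLP counts at 3MO came from 1 library, without which no fold could be formed.

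At 1MO, the 46 counts in MPPs against 2 in CLPs gave a ratio of 28.4 (95% counting interval 7.43 to 242) with no overlap between groups, and the edgeR adjusted p was 0.11. That comparison passed with DESeq2's Wald test (adjusted p = 0.0206), with genes of very low count kept (0.022) and without the 3MO CLP library 3 (0.0314). With age, Meg3 in MPPs differed by 3.60 ± 1.16 (95% interval 1.14 to 6.07), with no overlap. The ratio of summed counts was 11.7, with an interval of 8.65 to 16.2 that covers counting error only and not the spread between libraries. The unadjusted p was 0.00706 and the adjusted p 1, so the age difference did not pass. It was 3.33 to 4.17 with each library left out, and shares the 3MO MPP libraries with the population difference at 3MO. The interaction was -0.97 ± 2.73 (unadjusted p = 0.728), so the ages were not shown to differ more in one population than in the other.

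Stem cell markers moved with the same population difference. All 21 listed markers were tested, and 12 were lower and 0 higher in CLPs at each age (adjusted p under 0.05, where 2.81% of all tested genes were lower at 1MO and 3.34% at 3MO). Their summed level was 1086 to 1093 CPM in 1MO CLPs and 989 to 1127 in 3MO CLPs, against 2722 to 3185 and 2848 to 3004 in the MPPs, with at most 3 markers at 0 in a library. Unlike the Meg3 level, that sum overlapped between 1MO and 3MO MPPs. Their part in the Meg3 and Cdkn1c differences was not tested.

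Neighbours of Meg3 in the domain were sparse. Rian, a noncoding RNA that hosts small nucleolar RNAs, held 0, 18 and 10 counts in 1MO MPPs and 5, 11 and 73 in 3MO MPPs, and 0 to 14 in the CLP libraries. Its groups overlapped in each of the 4 comparisons of age or population. Mirg, Rtl1 and Dio3 had no count in any library.

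Plagl1, which encodes a zinc finger factor that regulates other imprinted genes, held 0, 0 and 10 counts in 1MO CLPs and none in 3MO CLPs. It held 4, 0 and 1 counts in 1MO MPPs and 0, 78 and 0 in 3MO MPPs. A single 3MO MPP library therefore carried most of the counts. Peg3, a zinc finger gene of paternal expression, held 20, 0 and 0 counts in 1MO CLPs, none in 3MO CLPs, 22, 0 and 12 in 1MO MPPs and 0, 0 and 13 in 3MO MPPs. Its differences could be formed only where both groups had counts: -1.39 ± 2.19 with age in MPPs and -0.52 ± 2.14 for CLPs against MPPs at 1MO, both with overlapping groups.

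H19, the noncoding RNA that shares enhancers with Igf2, and Mest, which encodes an enzyme of the hydrolase fold, had 0 counts in all 12 libraries. Over those libraries a count of 0 allows up to 0.0184 CPM (3 counts), far under the 67.2 CPM of the lowest Igf2r library. Their levels in these cells were not detectable at this depth.

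With age in CLPs, 0 of the 6 tested members passed edgeR's adjusted test, against 0.0748% of all tested genes, with 1 under an unadjusted p of 0.05 (Igf2r, higher; 2.96% of genes were higher at that threshold) and 1 passing by DESeq2 (Igf2r; 0.426% of genes). Igf2r and Dlk1 had higher 3MO groups without overlap, where 4.51% of genes did, and none of the tested members had lower ones. In MPPs, 0 passed by edgeR (0.0224% of genes) and 0 by DESeq2 (0.239%), which gave Peg3 no adjusted p, 2 had an unadjusted p under 0.05 (Igf2r and Meg3, both higher; 2.06% of genes), and the same 2 had higher 3MO groups without overlap (3.96%). The median log2 difference was 1.09 in CLPs over the 5 members with a fold (1.00 with Peg3, at 0 in 3MO CLPs, placed among the lower ones) and -0.15 in MPPs over the 6, beside -0.0088 and -0.011 over all tested genes with a fold. In the interaction 0 passed by either tool (0% of genes by edgeR and 0.0449% by DESeq2) and 0 had an unadjusted p under 0.05 (3.21% of genes).

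Between populations at 1MO, 0 of 6 passed by edgeR (5.38% of genes) and 1 by DESeq2 (Meg3; 8.79% of genes), 2 were lower in CLPs at an unadjusted p under 0.05 (Meg3 and Cdkn1c; 8.78% of genes), and Meg3, Cdkn1c and Grb10 were lower without overlap (13.8%). At 3MO, 1 of 6 passed by edgeR and by DESeq2 (Meg3, lower; 6.07% of genes were called by edgeR, with 3.34% of genes lower, and 10.3% by DESeq2), 2 were lower at an unadjusted p under 0.05 (10.8%), 1 was lower without overlap (Meg3, 11.7%) and 1 higher (Igf2r, 10.1%). The median log2 difference of CLPs against MPPs was -1.02 at 1MO over the 6 members. At 3MO it was 0.37 over the 5 members with a fold, and turned to -0.80 with Peg3, at 0 in 3MO CLPs, placed among the lower ones, so the median at 3MO has no settled direction. Over all tested genes with a fold the medians were -0.020 and -0.025. The remaining 4 members did not pass the filter and enter none of these counts.

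**Figure D2:**
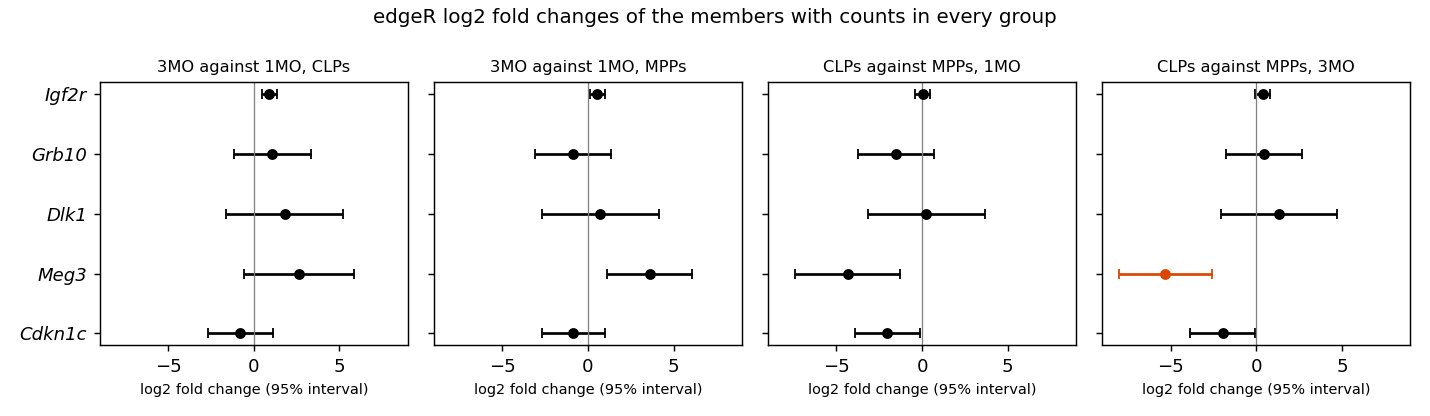
Fitted log2 fold change (point) with its 95% interval (bar) of the 5 tested members that had counts in every group, for age in CLPs and MPPs (3MO against 1MO) and for CLPs against MPPs at each age. Orange marks the only edgeR adjusted p under 0.05, Meg3 at 3MO, and Igf2r had the narrowest interval in each panel.

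Other imprinted genes were taken from a list of 66, of which 64 were in the table, 18 had no count in any library and 36 were tested. With age, 0 passed in either population by edgeR or DESeq2. At an unadjusted p under 0.05, 1 was higher and 0 lower in CLPs, and 2 were higher and 0 lower in MPPs, where 2.96% and 2.06% of all genes were higher. The smallest p-values with age in CLPs belonged to Slc22a3, to Zrsr1, which encodes a splicing factor (-0.67 ± 0.33, adjusted p = 0.864), and to Pon2, an antioxidant enzyme gene (-0.62 ± 0.31, adjusted p = 0.88). In MPPs they belonged to Sfmbt2, a Polycomb-group gene (2.27 ± 0.64, adjusted p = 0.812), Osbpl5, a lipid transfer gene (0.82 ± 0.33, adjusted p = 1), and Pde4d, a cAMP phosphodiesterase gene (-0.42 ± 0.20, adjusted p = 1). The Sfmbt2 value leaned on 1 library, with 694 counts in the 3MO MPP library 1 and 144 and 161 in the others.

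Between populations the other imprinted genes that passed were all lower in CLPs. At 1MO these were 4 of 36: Slc22a3, the noncoding Peg13 (-0.78 ± 0.15, edgeR adjusted p = 0.00494), the lipid flippase gene Atp10a (-0.75 ± 0.20, adjusted p = 0.0348) and the sarcoglycan gene Sgce (-1.41 ± 0.39, adjusted p = 0.0499). At 3MO they were again 4: Slc22a3, Zrsr1 (-1.76 ± 0.34, adjusted p = 0.00517), the tetraspanin gene Tspan32 (-1.16 ± 0.26, adjusted p = 0.0148) and Peg13 (-0.54 ± 0.15, adjusted p = 0.0457). DESeq2 called 9 and 6, all lower, where it called 4.76% and 5.69% of all genes lower. The list medians were -0.50 and -0.54, beside -0.021 and -0.029 over all tested genes, and edgeR called 2.81% and 3.34% of genes lower. The stem cell markers given beside Meg3 moved with these genes too, and their part in the differences was not tested.

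**Figure D3:**
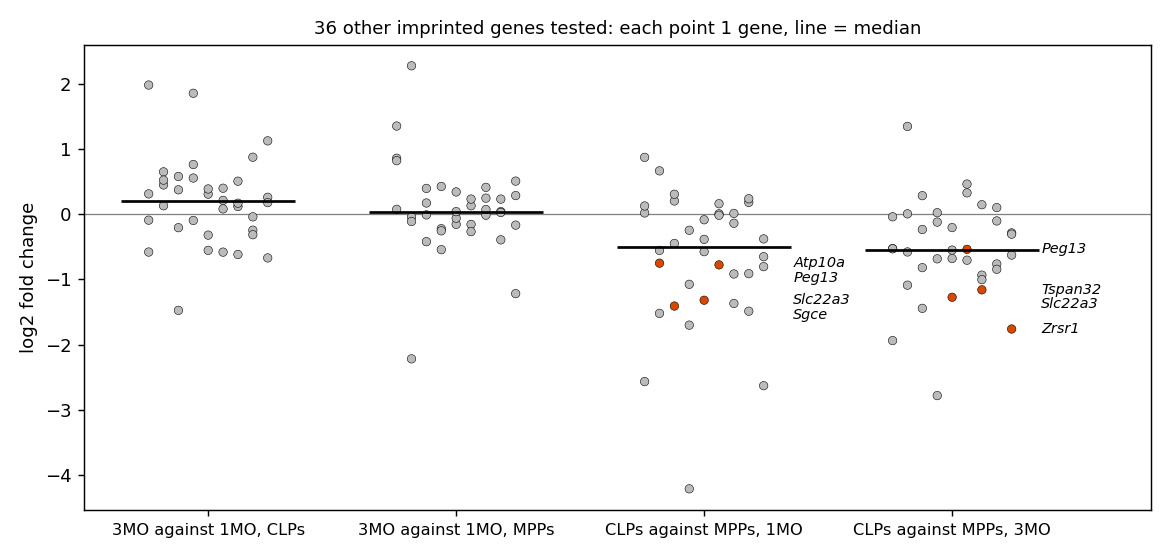
Log2 fold change of each of the 36 other imprinted genes tested (points, spread sideways for sight) with their median (black line), for age in each population and for CLPs against MPPs at each age. Orange and named genes had an edgeR adjusted p under 0.05. All 4 at each age lay below 0, and none passed with age.

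The insulin-like growth factor pathway around these genes was represented by 40 genes, 27 of them tested and 8 with no count in any library. Both signalling receptors were well expressed. Igf1r, the receptor through which IGF1 and IGF2 signal, had 241 ± 65.0 CPM in 1MO CLPs, 247 ± 16.7 in 3MO CLPs, 438 ± 70.1 in 1MO MPPs and 508 ± 192 in 3MO MPPs. It was lower in CLPs at 3MO (-1.04 ± 0.24, edgeR adjusted p = 0.0173), and at 1MO the difference of -0.86 ± 0.24 had an adjusted p of 0.0509. With age Igf1r differed by 0.03 ± 0.24 in CLPs and 0.21 ± 0.24 in MPPs. Insr, the insulin receptor gene that shares its adaptors, differed by 0.46 ± 0.22 in CLPs (adjusted p = 0.845) and -0.06 ± 0.22 in MPPs.

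Igf2bp3, which encodes a fetal-type protein that binds Igf2 mRNA, was the pathway gene that passed with age. It was lower at 3MO in CLPs (-4.52 ± 0.53, edgeR adjusted p = 0.00378), from 67.7, 38.9 and 65.1 CPM to 1.21, 4.20 and 1.82 CPM. In MPPs it was lower too (-7.84 ± 0.73, adjusted p = 0.000187), from 29.7, 18.4 and 30.7 CPM to 0, 0.288 and 0. At 3MO it was higher in CLPs than in MPPs (4.44 ± 0.76, adjusted p = 0.00208). Its namesake Igf2 had at most 5 counts in a library in either group, so the levels of the pair could not be set against each other.

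The other pathway genes with the smallest p-values with age were Foxo1, a transcription factor restrained by insulin signalling (-0.72 ± 0.22, adjusted p = 0.598), and Tsc1, a brake on mTORC1 (0.47 ± 0.21, adjusted p = 0.823), in CLPs. In MPPs they were its partner Tsc2 (0.66 ± 0.29, adjusted p = 1) and the S6 kinase gene Rps6kb1 (0.49 ± 0.25, adjusted p = 1). Library 1 of 3MO MPPs was the highest for both, with Tsc2 at 253 CPM against 138 and 88.0 in the other 3MO and 90.0 to 109 in the 1MO libraries, and Rps6kb1 at 207 against 109 and 106, and 84.4 to 115. Between populations at 1MO, Foxo3 was lower in CLPs (-0.73 ± 0.15, adjusted p = 0.00745) and Foxo1 higher (0.84 ± 0.22, adjusted p = 0.0334). Irs2, a docking protein of both receptors, differed with age by -0.09 ± 0.22 in CLPs and -0.25 ± 0.22 in MPPs. Igf1, the ligand of postnatal growth, had 0 to 97 counts per library and overlapping groups at every comparison. Over the 27 genes tested, the median with age was 0.057 in CLPs and -0.014 in MPPs. Between populations, edgeR called 1 of the 27 higher and 1 lower in CLPs at each age. It called 5.38% of all tested genes at 1MO and 6.07% at 3MO in either direction.

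**Figure D4:**
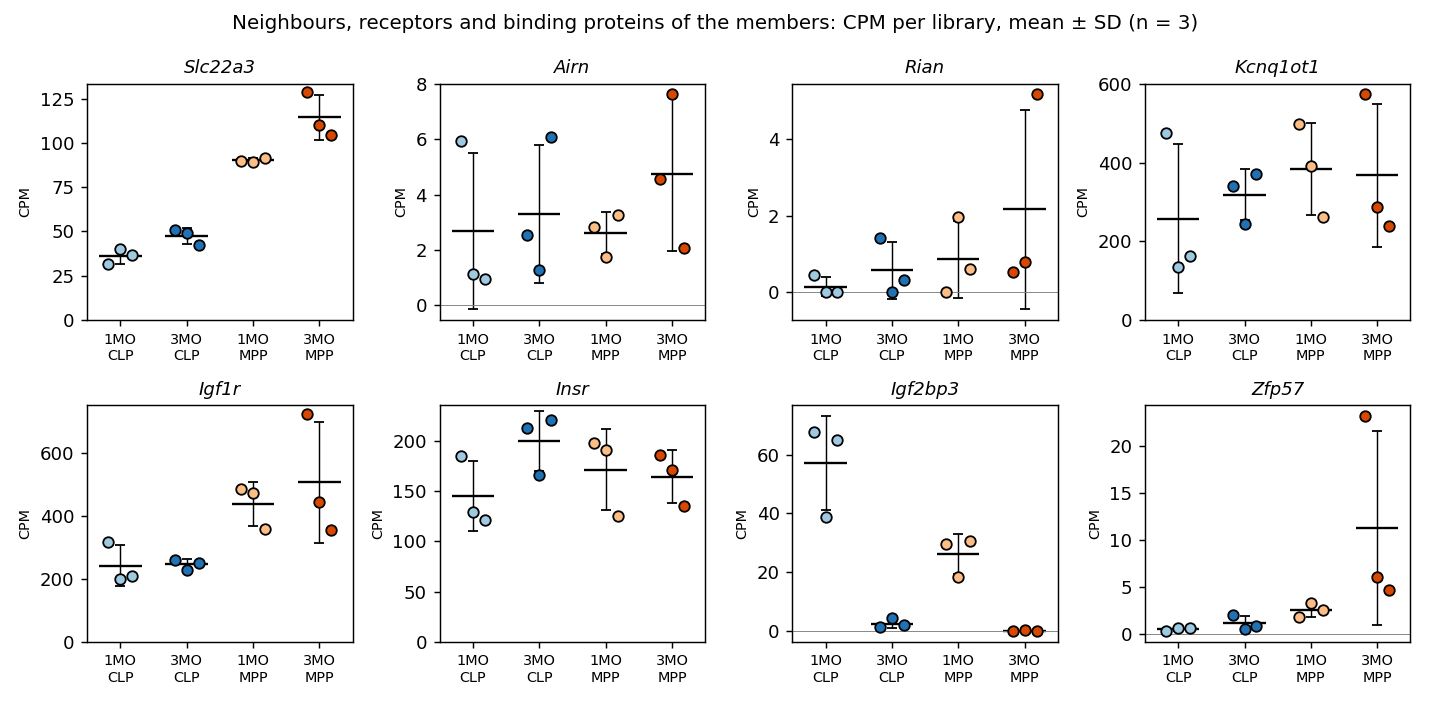
Level in CPM, on linear axes that differ between panels, of 8 genes next to or acting with the members, for each library (points) with the mean and SD of 3 libraries (line and bar). Slc22a3 and Igf1r lay lower in CLPs than in MPPs of the same age, Igf2bp3 fell with age in both populations, and Airn, Rian, Kcnq1ot1 and Insr overlapped in each comparison of ages or populations.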

How the data were processed

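The authors sequenced polyadenylated RNA from directional libraries and deposited 1 table of estimated counts per gene, made in an nf-core pipeline with STAR and Salmon, scaled for transcript length but not for depth (build mm10 per the submitters' notes). Here the estimated counts were rounded, filtered with filterByExpr and scaled with TMM. CPM is the rounded count per 1000000 of the scaled total of tested genes. All 4 groups were fitted together with edgeR 4.0.16 in R 4.3.3 (quasi-likelihood test, Benjamini-Hochberg over 13367 genes, adjusted p under 0.05 called). SE is the log2 fold change over the square root of F. P-values rest on a spread between libraries estimated from all 12 together, with information shared across genes. They do not rest only on the 3 libraries of each group compared. The fit was tested on simulated data. Gene positions come from the GENCODE M21 annotation of GRCm38 through Ensembl identifiers. The members and lists were chosen with earlier results of these data known. Genes named were the members, listed genes that passed (at most 8 per list and comparison), the 3 smallest p per list with age, Igf1r, Insr, Igf1, Irs2 and Igf2bp3, and the 2 genes most correlated with each tested member (not reported here for Grb10). Airn, Rian, Kcnq1ot1, Phlda2, Mirg, Rtl1, Dio3 and the cell type markers were named for their place beside a result, after their values were seen. Alternatives were DESeq2 1.42.0 (size factors; Wald test), no filter beyond 1 count, a minimum of 10 counts in all libraries, the replicate number as a block, thinning to the smallest total, fits of only the libraries compared, and each library left out. Raw reads were not used.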

Additional observations from a re-analysis of the deposited data

How the results depend on the processing

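The number of members called with age in CLPs went from 0 to 1 (Igf2r) with no filter beyond 1 count and with DESeq2's Wald test, where calls over all genes went from 10 to 46 and 57 (in MPPs from 3 to 26 and 32, in the interaction from 0 to 6 and 6). For CLPs against MPPs at 1MO it went from 0 to 1 (Meg3) under the same settings (719 calls over all genes against 903 and 1175), and was 0 to 1 with each library left out. At 3MO it went from 1 to 0 with at least 10 counts in every library, since Igf2r alone was then tested, and over all genes DESeq2 made 1371 calls and fits of the 6 libraries alone 435 against 812; with age in CLPs that minimum and those fits made 4 calls each, and with age in MPPs 1 and 4. The 3MO count was 0 to 1 with each library left out. All other counts of members called with age in MPPs and in the interaction stayed at 0. Directions turned for values near 0: the interaction of Cdkn1c was -0.051 with the replicate block, and Dlk1 in CLPs against MPPs at 1MO was -0.089 after thinning. With each library left out, ranges that crossed 0 were -0.12 to 2.11 for Grb10 with age in CLPs, -1.26 to 1.28 for Dlk1 with age in MPPs, and -0.79 to 0.93 for the interaction of Cdkn1c. At 1MO between populations they were -0.18 to 0.23 for Igf2r, -0.30 to 0.79 for Dlk1 and -1.07 to 0.63 for Peg3, and at 3MO -0.75 to 1.11 for Grb10; the cause was not tested. Deviations from the group mean correlated at -0.03 to 0.21 between libraries of the same number, beside highest values of -0.095 to 0.14 with another number. For library 3 they were 0.21 against -0.095 with age in MPPs and 0.20 against -0.067 between populations at 1MO. With age in CLPs they were -0.0002 against 0.011. Libraries of the same number thus did not deviate together throughout, and the numbers were not taken as pairs. Library 3 had the highest summed erythroid markers in each of the 4 groups (239, 164, 531 and 404 CPM, against at most 77.4, 89.1, 299 and 250 in the others). The replicate block changed no other member's direction and no member's call. Peg3 has no fold against 3MO CLPs, and Meg3 none where its only CLP library with counts was left out. In a single library 3 counts corresponded to 0.148 to 0.329 CPM, so differences under that level were not detectable.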

Other observations

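Genes that maintain imprints were listed separately, 21 in all with 18 tested. With age, 0 of them passed by edgeR or DESeq2 in either population (edgeR called 0.0748% of all genes in CLPs and 0.0224% in MPPs, DESeq2 0.426% and 0.239%). At an unadjusted p under 0.05, 0 differed in CLPs and 1 was higher in MPPs, where 2.96% of all genes were higher in CLPs and 2.06% in MPPs. That gene was Zfp57, which encodes the zinc finger protein that keeps methylated imprints, at 1.85, 3.29 and 2.59 CPM in 1MO MPPs and 23.2, 6.04 and 4.75 in 3MO MPPs (2.13 ± 0.76, adjusted p = 1). Like Meg3, it was lower in CLPs than in MPPs at 3MO (-3.29 ± 0.80, edgeR adjusted p = 0.0214), and 1 MPP library carried most of its counts. Hells, a chromatin remodeller needed for DNA methylation, was higher in CLPs at 3MO (0.91 ± 0.22, adjusted p = 0.0214), and Uhrf1, which brings the maintenance methyltransferase to replicated DNA, was higher in CLPs at 1MO (0.55 ± 0.15, adjusted p = 0.0435). Of the 18 tested, edgeR thus called 1 higher and 0 lower in CLPs at 1MO, and 1 higher and 1 lower at 3MO. It called 5.38% and 6.07% of all tested genes in either direction. The smallest other p-values with age belonged to Uhrf1 (-0.23 ± 0.15, adjusted p = 0.909), Zfp57 (1.00 ± 0.78, adjusted p = 0.921) and Dnmt3a (0.20 ± 0.17, adjusted p = 0.921) in CLPs, and to Dnmt3b (-0.39 ± 0.19) and Uhrf1 (0.14 ± 0.15) in MPPs, both with an adjusted p of 1.

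The genes whose log2 CPM ran most like 5 of the 6 tested members over the 12 libraries were, by Pearson's r and as a description only, Mfn2 (0.87) and Gm1043 (0.86) for Igf2r, Phldb2 (0.96) and Acot1 (0.96) for Meg3, and Ptafr (0.95) and Ppp1r9b (0.93) for Cdkn1c. For Dlk1 they were Ndufaf4 (0.91) and Ripk2 (0.91), and for Peg3 Ndufaf6 (0.81) and Tma16 (0.81). The libraries share groups, so these values mix group differences with spread inside groups, and for Dlk1, Peg3 and Meg3 many libraries sit at or near 0. Among the members themselves the highest r was 0.53, between Meg3 and Cdkn1c, and the lowest -0.46, between Igf2r and Cdkn1c.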
